A study of Mus musculus with 16 samples.

Results

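Complexes I and IV are 2 of the protein complexes of the mitochondrial respiratory chain, and the genes described here are those that encode their subunits in the nuclear genome. The members were taken by symbol from the deposited count table: every gene whose symbol begins with Ndufa, Ndufb, Ndufc, Ndufs, Ndufv, Cox4i, Cox5, Cox6, Cox7 or Cox8, without the Ndufaf assembly factors and without pseudogene symbols. The rule gave 56 of the 38087 genes in the table, 38 with an Nduf and 18 with a Cox symbol. The rule read symbols and no measured value, although the gene family was picked with earlier results of these data known. By role they were 7 core subunits of complex I, 9 accessory subunits of its matrix arm, 20 accessory subunits of its membrane arm, 11 ubiquitous subunits of complex IV, 7 isoforms of complex IV subunits that are restricted to some tissues, and the related genes Cox7a2l and Ndufa4l2.

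Complex I, NADH dehydrogenase, takes electrons from NADH at the tip of its matrix arm and passes them along iron-sulfur clusters to ubiquinone, while its membrane arm pumps protons. Complex IV, cytochrome c oxidase, passes electrons from cytochrome c to oxygen, and its nuclear subunits surround a catalytic core that the mitochondrial genome encodes. Several complex IV subunits exist as pairs of genes, one used in most tissues and one used in heart and skeletal muscle, in lung or in male germ cells; Cox6b2, Cox7b2 and Cox8c are known as testis isoforms. The subunits encoded by mitochondrial DNA were not analysed here. Of the 13 proteins it encodes, a set not limited to complexes I and IV, 0 were among the genes listed.

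Whole testes and ovaries of C57BL/6j mice aged 15 to 16 weeks were profiled by total RNA sequencing, with 3 libraries of germ-free (GF) testes, 4 of conventionally raised (CV) testes, 5 of GF ovaries and 4 of CV ovaries. GF mice are kept without microbes and CV mice carry a normal microbiota; no genotype was altered, all groups fed freely, and tissue was taken at zeitgeber time 2 to 4 h. Testes came from males and ovaries from females, so tissue and sex are a single factor, and the stage of the ovarian cycle is not given by the labels. The labels do not state that libraries came from separate animals, so every p-value reflects only how far these samples scatter, part of which may be technical. Total counts ranged between 26015487 and 27188919 in GF testes, 25880591 and 28266867 in CV testes, 13294039 and 15907297 in GF ovaries, and 12912251 and 15141027 in CV ovaries. The labelled tissues carried their defining markers: the summed level of 6 spermatid genes was 16577 to 17510 CPM in GF testes and 17571 to 18647 CPM in CV testes, against 0.149 to 1.70 CPM in GF ovaries and 0.791 to 1.21 CPM in CV ovaries. Levels are CPM, read counts scaled to TMM-normalised library sizes, and levels of different genes are set side by side only per kilobase of annotated exon (CPM per kb). A member is said to be called where edgeR's quasi-likelihood test gave a Benjamini-Hochberg adjusted p under 0.05 over all genes tested, and fold changes are log2 with their standard error (SE).

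The testis and the ovary used different genes for 3 subunits of complex IV. Cox6b2, Cox7b2 and Cox8c were among the more abundant members in every testis library and had few or no counts in the ovary. Their ubiquitous partners Cox6b1, Cox7b and Cox8a were lower in testes than in ovaries in both GF and CV mice. In whole-organ RNA, fewer cells of a type and less RNA per cell cannot be told apart. The spermatid markers given above moved with the same comparison, as did 6 granulosa cell markers, whose summed level was 68.6 to 70.2 CPM in GF testes and 69.0 to 75.1 CPM in CV testes, against 820.4 to 1681 CPM in GF ovaries and 844 to 1471 CPM in CV ovaries. Their part in the tissue differences was not tested.

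Cox6b2 and Cox6b1 encode subunit VIb, which faces the intermembrane space near the site where cytochrome c docks. Cox6b2 stood at 115, 113 and 113 CPM in GF testes and at 104, 116, 124 and 113 CPM in CV testes, against 1.39, 0.649, 1.47, 1.40 and 2.05 CPM in GF ovaries and 1.25, 1.12, 1.75 and 2.54 CPM in CV ovaries. Cox6b1 stood at 22.0, 25.7 and 25.4 CPM in GF testes and at 24.1, 21.5, 22.7 and 23.3 CPM in CV testes, against 98.5, 88.1, 102, 84.3 and 88.8 CPM in GF ovaries and 82.9, 102, 90.1 and 94.7 CPM in CV ovaries. The lowest testis library for Cox6b2 was far above the highest ovary library, and for Cox6b1 the order was the opposite, again without overlap. The log2 fold change of testis over ovary for Cox6b2 was 6.35 ± 0.19 SE in GF mice (edgeR, Benjamini-Hochberg adjusted p = 2.25e-10) and 6.13 ± 0.16 SE in CV mice (adjusted p = 1.12e-11). For Cox6b1 it was -1.90 ± 0.09 SE in GF mice (edgeR, Benjamini-Hochberg adjusted p = 4.9e-09) and -1.99 ± 0.07 SE in CV mice (adjusted p = 6.49e-12).

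Cox7b2 and Cox7b encode the small membrane-spanning subunit VIIb. Cox7b2 stood at 156, 162 and 159.8 CPM in GF testes and at 159.8, 161, 164 and 159 CPM in CV testes. All 5 GF ovaries together held 0 reads of Cox7b2 and all 4 CV ovaries together held 1. Set against a floor of 3 counts over the group, the level was at least 4857-fold higher in GF testes than in GF ovaries. In CV mice the ratio was 11618, with a 95% interval of 2085 to 458937 that covers counting error only. X-linked Cox7b stood at 7.69, 8.08 and 8.85 CPM in GF testes and at 7.77, 7.92, 7.13 and 8.13 CPM in CV testes, against 69.7, 69.1, 71.1, 65.5 and 67.5 CPM in GF ovaries and 59.8, 83.3, 72.5 and 74.7 CPM in CV ovaries. No testis library reached the lowest ovary library. The log2 fold change of Cox7b was -3.04 ± 0.07 SE in GF mice (edgeR, Benjamini-Hochberg adjusted p = 2.77e-11) and -3.21 ± 0.10 SE in CV mice (adjusted p = 1.97e-12).

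Cox8c and Cox8a encode subunit VIII, the smallest nuclear subunit. Cox8c stood at 218, 214 and 224 CPM in GF testes and at 203, 225, 218 and 219.6 CPM in CV testes, with 0 reads in all GF ovaries and 1 in all CV ovaries. Its level was at least 6668-fold higher in GF testes than in GF ovaries, against the same floor of 3 counts over the group, and the ratio in CV mice was 15636 (counting interval 2806 to 617617). Cox8a stood at 19.5, 18.7 and 19.1 CPM in GF testes and at 21.8, 18.2, 20.2 and 21.5 CPM in CV testes, against 97.4, 86.2, 93.1, 81.4 and 85.6 CPM in GF ovaries and 82.9, 106, 81.4 and 86.6 CPM in CV ovaries. The ranges of the 2 tissues lay far apart for both genes, in opposite order. The log2 fold change of Cox8a was -2.19 ± 0.08 SE in GF mice (edgeR, Benjamini-Hochberg adjusted p = 5.79e-10) and -2.11 ± 0.09 SE in CV mice (adjusted p = 5.27e-11).

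**Figure D1:**
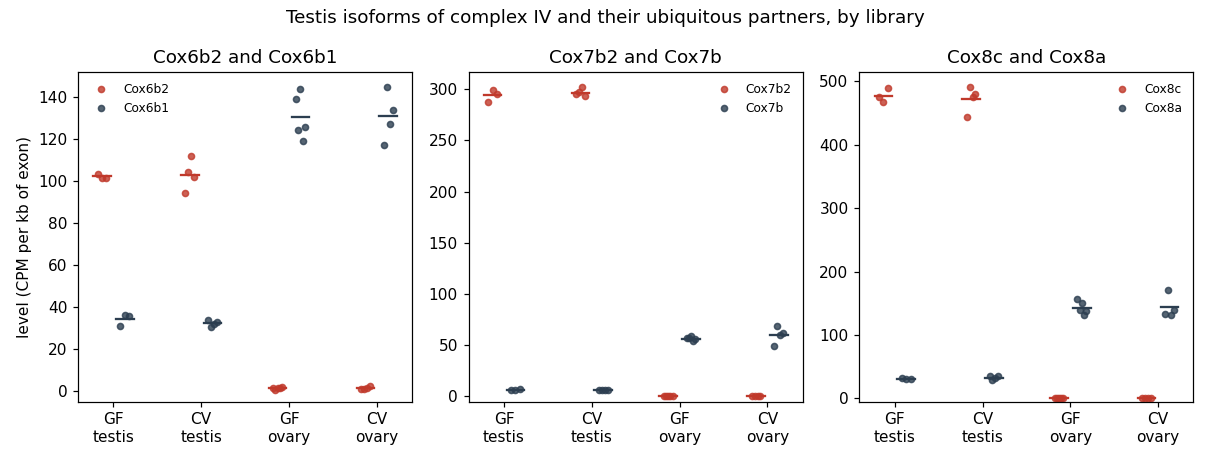
Level in CPM per kb of exon, 1 point per library and a bar at the group mean, for 3 testis isoforms of complex IV subunits (Cox6b2, Cox7b2, Cox8c) and their ubiquitous partners (Cox6b1, Cox7b, Cox8a) in GF testis, CV testis, GF ovary and CV ovary. In testes the isoform lies above its partner in every library, and in ovaries below it, with no overlap between tissues for any of the 6 genes.

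Per length, the testis isoform made up most of each pair's RNA in testes. Cox7b2 was 97.8% ± 0.143 of the Cox7b2 and Cox7b sum in GF testes and 97.9% ± 0.139 in CV testes (SD, n = 3 and 4). Cox8c was 93.9% ± 0.137 of its pair in GF testes and 93.5% ± 0.713 in CV testes, and Cox6b2 was 74.8% ± 1.81 and 76.0% ± 1.97 of its pair in GF and CV testes. In ovaries Cox6b2 was 0.956% ± 0.352 of the pair in GF and 1.14% ± 0.425 in CV libraries (SD, n = 5 and 4). The summed level of the pair did not move alike: the testis to ovary ratio of the Cox6b2 and Cox6b1 sum was 1.04 in GF and 1.02 in CV mice, that of Cox8c and Cox8a 3.55 and 3.51, and that of Cox7b2 and Cox7b 5.32 and 5.07. These ratios rest on the TMM scaling between tissues.

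The promoters of both members of the pairs are printed to set the tissue isoform beside its partner, together with that of Ndufs6, an accessory subunit of the matrix arm that was higher in testes and whose window holds a match to the NRF1 motif. NRF1 is a factor known for binding the promoters of many respiratory genes. Each window runs from 250 bases before to 50 bases after the gene's start in RefSeq (GRCm38.p6), 5′ to 3′ on the gene's strand, and capitals mark matches to any of 5 motifs searched on both strands, the CCAAT box, the TATA box and the motifs of ETS factors, NRF1 and CREB. The windows are Cox6b2 at chr7:4753045-4753344 (minus strand), Cox6b1 at chr7:30626065-30626364 (minus), Cox7b2 at chr5:71548156-71548455 (minus), Cox7b at chrX:106015450-106015749 (plus), Cox8a at chr19:7217567-7217866 (minus) and Ndufs6 at chr13:73328433-73328732 (minus).
Cox6b2: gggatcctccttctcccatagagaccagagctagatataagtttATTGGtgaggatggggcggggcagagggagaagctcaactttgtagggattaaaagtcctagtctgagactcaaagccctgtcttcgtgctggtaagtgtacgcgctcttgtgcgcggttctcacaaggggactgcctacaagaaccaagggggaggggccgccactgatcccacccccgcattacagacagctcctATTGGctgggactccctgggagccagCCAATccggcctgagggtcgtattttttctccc
Cox6b1: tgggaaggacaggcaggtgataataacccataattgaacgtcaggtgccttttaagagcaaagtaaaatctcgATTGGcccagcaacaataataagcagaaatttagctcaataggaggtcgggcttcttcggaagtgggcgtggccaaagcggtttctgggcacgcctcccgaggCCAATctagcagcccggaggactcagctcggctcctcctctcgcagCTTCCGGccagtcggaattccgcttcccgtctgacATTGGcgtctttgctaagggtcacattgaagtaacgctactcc
Cox7b2: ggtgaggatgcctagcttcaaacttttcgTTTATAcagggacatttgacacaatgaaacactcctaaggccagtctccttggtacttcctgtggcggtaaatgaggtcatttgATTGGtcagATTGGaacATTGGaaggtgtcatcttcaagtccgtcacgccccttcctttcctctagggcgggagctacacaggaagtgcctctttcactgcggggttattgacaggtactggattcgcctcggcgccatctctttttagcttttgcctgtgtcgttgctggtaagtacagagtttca
Cox7b: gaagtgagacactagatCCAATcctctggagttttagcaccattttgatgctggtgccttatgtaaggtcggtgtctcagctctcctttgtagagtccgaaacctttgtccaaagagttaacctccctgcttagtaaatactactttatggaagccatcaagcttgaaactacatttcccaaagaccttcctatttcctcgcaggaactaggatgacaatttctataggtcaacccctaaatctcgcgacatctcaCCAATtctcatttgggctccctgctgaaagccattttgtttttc
Cox8a: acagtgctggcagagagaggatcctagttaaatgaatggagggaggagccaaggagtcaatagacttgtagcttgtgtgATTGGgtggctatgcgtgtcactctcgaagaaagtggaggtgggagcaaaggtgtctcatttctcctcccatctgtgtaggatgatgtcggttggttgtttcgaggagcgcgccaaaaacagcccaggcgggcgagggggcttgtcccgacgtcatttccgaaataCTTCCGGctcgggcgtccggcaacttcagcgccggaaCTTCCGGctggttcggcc
Ndufs6: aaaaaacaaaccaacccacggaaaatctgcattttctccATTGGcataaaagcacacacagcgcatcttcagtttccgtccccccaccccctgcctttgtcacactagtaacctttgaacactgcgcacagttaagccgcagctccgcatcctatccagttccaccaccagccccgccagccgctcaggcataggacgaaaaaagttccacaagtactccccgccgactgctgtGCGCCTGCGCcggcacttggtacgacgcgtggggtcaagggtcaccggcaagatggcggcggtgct

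In these windows Cox6b2 had 3 matches to CCAAT and none to the other motifs, and Cox6b1 had 3 CCAAT matches and 1 ETS match. Cox7b2 had 3 CCAAT matches and 1 TATA match, against 2 CCAAT matches for Cox7b. Cox8a had 2 ETS matches and 1 CCAAT match, and Ndufs6 had 1 NRF1 and 1 CCAAT match. Windows were found for 46 of the 56 members, 48 windows in all, and Cox8c was among the 10 without one. Of these 48 windows 17 held the letters CCAAT (35.4%, against 37.4% of all 32851 promoter windows). The letters TATAAA were in 7 windows (14.6% against 13.6%). The ETS motif, searched as CCGGAAG, was in 7 windows (14.6% against 8.86%). The CREB motif, searched as TGACGTCA, was in 3 windows (6.25% against 1.79%). The NRF1 motif, searched as GCGC and TGCGC with 1 free base between, was in 9 windows (18.8% against 4.6%). No motif contains another, although matches may overlap in place. The NRF1 matches fell in 8 genes: Cox6a1, Ndufa11, Ndufa5, Ndufa6, Ndufa8, Ndufb4, Ndufs5 and Ndufs6. Of the windows of members called higher in testes in both GF and CV mice with TMM 7 of 28 held it, and of those called lower in both 0 of 14. The same split was 6 of 28 and 7 of 14 for CCAAT, 4 and 2 for TATAAA, 3 and 3 for ETS, and 0 and 1 for CREB. It rests on the scaling: with raw totals Ndufa6 was called lower, and Ndufa8, Ndufb4 and Ndufs5 were not called higher. A match describes letters only and is no evidence of binding.

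Beyond the isoform pairs, most members differed between the tissues in both directions, as did most genes. Of 54 members tested, 49 were called in GF mice (33 higher and 16 lower in testes), where 89.2% of all genes were called (45.7% higher and 43.4% lower), and 49 in CV mice (32 higher and 17 lower), where 91.2% of all genes were called (47.4% higher and 43.8% lower). In both comparisons, which share no library, 47 of the 54 members were called in the same direction, 32 higher and 15 lower, beside 87.4% of all genes (45.4% higher and 42% lower); none was called in opposite directions. The share of calls among members was thus near the background. The median log2 fold change over the members tested was 0.54 in GF and 0.50 in CV mice, beside 0.04 and 0.11 over all genes.

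The split into higher and lower rested on the scaling between tissues, since scaling by raw totals moved the median of all genes by -0.79 in GF and -0.80 in CV mice. Under raw totals 18 members were called higher and 30 lower in GF mice, and 18 higher and 29 lower in CV mice; with edgeR's RLE scaling the splits were 33 and 13 in GF and 34 and 14 in CV mice. The members' median stood above that of all genes by 0.50 in GF and 0.39 in CV mice under each of the 3 scalings. A change of scaling shifts all genes by nearly the same amount, so it could hardly alter this gap. Without a filter on low counts the gap was 0.29 in GF and 0.12 in CV mice, and without CV ovary library 4 it was 0.23 in CV mice. Called in both GF and CV mice under all 3 scalings were 18 members higher in testes (33.3%, beside 34.8% of all genes) and 12 lower (22.2%, beside 39.6% of all genes).

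Among the 7 core subunits of complex I, which carry the flavin and the iron-sulfur clusters, Ndufv1 and Ndufv2 were higher in testes and Ndufs8 lower under every scaling, and the other 4 depended on it. Ndufv2, which holds an iron-sulfur cluster next to the NADH site, stood at 273 to 282 CPM in GF testes and 274 to 285 CPM in CV testes, against 71.0 to 78.6 CPM in GF ovaries and 69.7 to 82.5 CPM in CV ovaries. The tissues did not overlap, and its log2 fold change was 1.93 ± 0.05 SE in GF mice (edgeR, Benjamini-Hochberg adjusted p = 5.14e-11) and 1.92 ± 0.05 SE in CV mice (adjusted p = 7.74e-13). Ndufs8, an iron-sulfur subunit nearer to the quinone site, had log2 fold changes of -0.70 ± 0.08 SE in GF and -0.69 ± 0.07 SE in CV mice.

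Of the 9 accessory subunits of the matrix arm, 6 were higher in testes under every scaling (Ndufa12, Ndufa2, Ndufa5, Ndufa7, Ndufa9 and Ndufs6) and 1 was lower (Ndufv3, an accessory subunit of the NADH-oxidising module). Ndufa12 stood at 155.6 to 165 CPM in GF testes and 159 to 166 CPM in CV testes, against 41.3 to 48.5 CPM in GF ovaries and 39.8 to 48.8 CPM in CV ovaries, with log2 fold changes of 1.84 ± 0.07 SE in GF and 1.86 ± 0.06 SE in CV mice. Ndufv3 had log2 fold changes of -0.81 ± 0.11 SE in GF and -0.84 ± 0.10 SE in CV mice. Among the 20 accessory subunits of the membrane arm, 4 were higher under every scaling (Ndufa13, Ndufb5, Ndufb8 and Ndufc1), 4 were lower (Ndufa1, Ndufa10, Ndufb11 and Ndufc2) and 12 depended on the scaling or were not called in each. X-linked Ndufb11 stood at 9.04, 11.5 and 10.2 CPM in GF testes and 10.6, 10.8, 10.8 and 10.9 CPM in CV testes, against 52.2, 50.8, 59.1, 48.2 and 47.7 CPM in GF ovaries and 49.6, 57.6, 55.9 and 54.7 CPM in CV ovaries. It was lower in every testis library, with log2 fold changes of -2.31 ± 0.11 SE in GF and -2.32 ± 0.07 SE in CV mice.

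All 3 X-linked members (Cox7b, Ndufa1 and Ndufb11) were lower in testes under every scaling, as were 52.1% of the 896 X-linked genes tested in all fits, while 33.8% were higher. Exons of other genes lie on those of 21 members, on the same strand for 3 (Ndufb2, Ndufb8 and Ndufb9), and the sources used here do not give the strand setting of the counting. Ndufa13 shares 375 bases of exon with Tssk6, a kinase gene of male germ cells whose log2 fold change in CV mice was 11.39, and Ndufb5 shares 616 bases with Mrpl47 (2.54). The part of such reads in the members' values was not tested.

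Of the 11 ubiquitous complex IV subunits, Cox5a and Cox7a2 were higher in testes under every scaling and Cox6b1, Cox7b, Cox8a and Ndufa4 were lower. Cox7a2, the form of subunit VIIa used outside muscle, stood at 213, 234 and 228 CPM in GF testes and 215, 206, 215 and 213 CPM in CV testes, against 62.0, 56.9, 57.1, 55.99 and 55.9 CPM in GF ovaries and 55.6, 60.8, 55.8 and 57.9 CPM in CV ovaries. Its log2 fold change was 1.99 ± 0.05 SE in GF mice (edgeR, Benjamini-Hochberg adjusted p = 7.95e-11) and 1.90 ± 0.05 SE in CV mice (adjusted p = 1.43e-13), and every testis library lay above every ovary library. Cox5a, which sits on the matrix side of the complex, had log2 fold changes of 1.96 ± 0.07 SE in GF and 1.91 ± 0.05 SE in CV mice. Cox4i1, the largest nuclear subunit, was called higher with TMM (0.51 ± 0.07 SE in GF and 0.33 ± 0.05 SE in CV mice) and had values of -0.28 and -0.47 with raw totals. Cox6a1 was not called in either (-0.14 ± 0.06 SE in GF and -0.00 ± 0.07 SE in CV mice, edgeR, Benjamini-Hochberg adjusted p = 0.0591 and 0.949); it was called lower in GF mice without GF ovary library 2 (-0.17) or 5 (-0.16), without a filter (-0.17) and with limma-voom (-0.14), and in both with raw totals (-0.93 in GF and -0.81 in CV mice).

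Ndufa4, first purified with complex I and now placed in complex IV, and its paralogue Ndufa4l2, known in other cells as a gene induced by low oxygen, went opposite ways. Ndufa4 stood at 16.3, 18.4 and 15.3 CPM in GF testes and 16.5, 17.7, 15.6 and 15.3 CPM in CV testes, against 74.5, 75.9, 77.1, 74.0 and 75.5 CPM in GF ovaries and 64.7, 90.3, 76.5 and 75.4 CPM in CV ovaries. Ndufa4l2 stood at 26.9, 27.0 and 26.5 CPM in GF testes and 30.5, 32.7, 32.8 and 31.5 CPM in CV testes, against 3.62, 2.48, 2.72, 3.26 and 2.66 CPM in GF ovaries and 3.39, 2.55, 2.35 and 3.39 CPM in CV ovaries. Neither gene had overlapping tissue ranges. The log2 fold change was -2.15 ± 0.07 SE in GF and -2.22 ± 0.10 SE in CV mice for Ndufa4, and 3.20 ± 0.13 SE in GF and 3.46 ± 0.12 SE in CV mice for Ndufa4l2 (edgeR, Benjamini-Hochberg adjusted p = 4.74e-10, 7.98e-11, 1.41e-09 and 4.73e-12). Cox7a2l was lower in testes under every scaling.

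The isoforms known from lung and muscle were low in both organs. Cox4i2, the lung isoform of subunit IV, stood at 0.155, 0.196 and 0.356 CPM in GF testes and 0.311, 0.154, 0.0505 and 0.245 CPM in CV testes, against 1.28 to 2.89 CPM in GF ovaries and 2.24 to 3.22 CPM in CV ovaries. Its log2 fold change was -3.05 ± 0.40 SE in GF mice and -3.67 ± 0.35 SE in CV mice (edgeR, Benjamini-Hochberg adjusted p = 2.8e-05 and 2.75e-07). Cox7a1, the muscle isoform of subunit VIIa, was called lower in CV testes (-1.12 ± 0.25 SE, edgeR, Benjamini-Hochberg adjusted p = 0.00101) and not in GF testes (-0.47 ± 0.38 SE, adjusted p = 0.256), where it was called without GF ovary library 2 (-0.67) and with raw totals (-1.26). Cox6a2 and Cox8b, both muscle isoforms, did not pass the filter on low counts. Cox6a2 had 6 reads in all GF testes, 8 in all CV testes, 13 in all GF ovaries and 12 in all CV ovaries; Cox8b had 0, 1, 40 and 50 in the same order of groups.

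**Figure D2:**
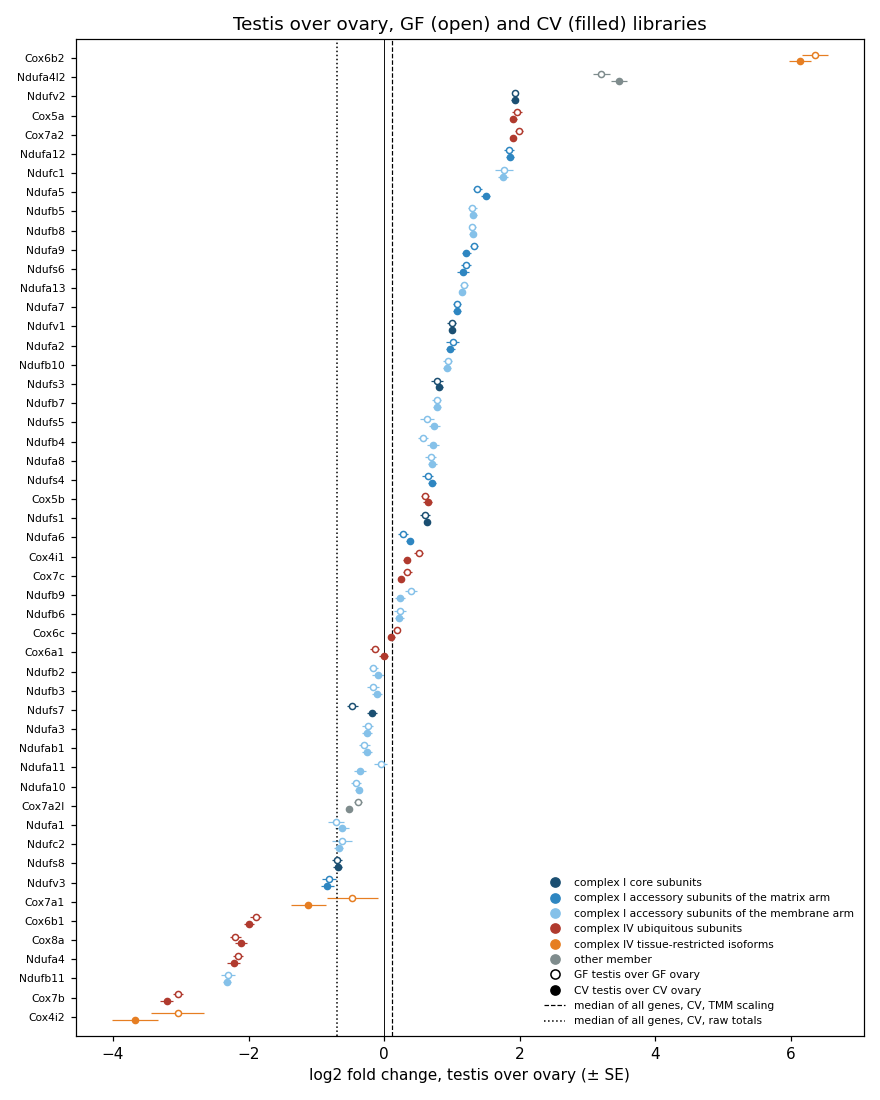
Log2 fold change of testis over ovary with TMM scaling, for the members tested in GF (open) and CV (filled) mice, coloured by role, with bars for the SE; Cox7b2 and Cox8c, whose ovary counts were 0 or 1, are among those left out. The dashed line marks the median of all genes in CV mice (0.11) and the dotted line the same median with raw totals (-0.69); Cox4i1, at 0.33 in CV mice with TMM and -0.47 with raw totals, is among the members that change side.

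The order of levels per length also differed between the organs. Over the 7 testis libraries the highest members were Cox8c (475 ± 15.9 CPM per kb, SD), Cox7b2 (295 ± 4.49), Cox7a2 (230 ± 10.4, in the same unit) and Cox4i1 (168 ± 8.38), each apart from its neighbour by more than the spread. Over the 9 ovary libraries they were Cox6a1 (146 ± 12.3 CPM per kb, SD), Cox8a (144 ± 13.3), Cox6b1 (131 ± 10.3) and Cox4i1 (128 ± 9.48), whose spreads overlap so that their order is not resolved. The lowest levels were those of Cox7a1 (2.00 ± 0.438 CPM per kb), Cox4i2, Cox6a2 and Cox8b in testes, and of Cox6b2 (1.37 ± 0.495 CPM per kb), Cox6a2, Cox8c and Cox7b2 in ovaries. Annotated exon length stands in for the transcript, so a gene with long rare exons is given too low a level. The summed CPM of the Nduf genes was 2703 to 2790 in GF testes and 2732 to 2763 in CV testes, against 1698 to 1896 in GF ovaries and 1632 to 1879 in CV ovaries. That of the Cox genes was 1632 to 1708 in GF testes and 1626 to 1671 in CV testes, against 982 to 1070 in GF ovaries and 961 to 1130 in CV ovaries, so the sums of GF and CV libraries overlapped in both organs.

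**Figure D3:**
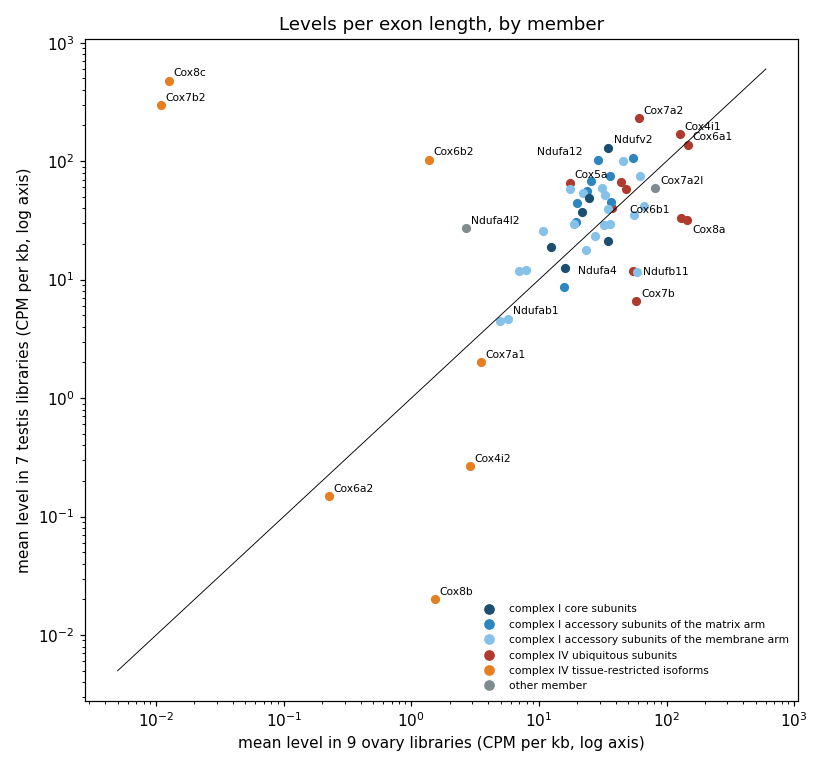
Mean level of members in CPM per kb of exon on log axes, testes (7 libraries) upward and ovaries (9 libraries) to the right, with a line of equality. Cox8c, Cox7b2 and Cox6b2 lie far above the line, with 475, 295 and 103 CPM per kb in testes.

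In the testis, absence of microbes went with small differences in 4 members. Cox4i1, Ndufb9 and Ndufa9 were higher and Ndufa4l2 was lower in GF than in CV testes. These were 4 of the 53 members tested, a share near the 8.08% called among all genes (3.67% higher and 4.41% lower). Of the 3 members not tested, Cox4i2, Cox6a2 and Cox8b, none passed the filter on low counts.

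Cox4i1 stood at 263, 279.6 and 276 CPM in GF testes, against 248, 249, 254 and 252 CPM in CV testes. The ranges did not overlap, and the log2 fold change was 0.14 ± 0.03 SE (edgeR, Benjamini-Hochberg adjusted p = 0.00204). Ndufb9, an accessory subunit of the membrane arm, stood at 75.2, 87.6 and 84.6 CPM in GF testes, against 73.1, 75.0, 74.9 and 75.1 CPM in CV testes, where the first GF library lay just above the highest CV library. Its log2 fold change was 0.16 ± 0.05 SE (edgeR, Benjamini-Hochberg adjusted p = 0.0163), with adjusted p of 0.00198 to 0.233 when single libraries were left out and no call without GF library 2 or 3. Ndufa9, which sits where the matrix arm meets the membrane, stood at 117, 128 and 124 CPM in GF testes, against 114, 111, 118 and 112 CPM in CV testes, with 1 CV library inside the GF range. Its log2 fold change was 0.13 ± 0.04 SE (edgeR, Benjamini-Hochberg adjusted p = 0.0214), with adjusted p of 0.0153 to 0.224 when single libraries were left out and no call without GF library 2 or 3 or CV library 1 or 2.

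Ndufa4l2 stood at 26.9, 27.0 and 26.5 CPM in GF testes, against 30.5, 32.7, 32.8 and 31.5 CPM in CV testes. No GF library reached the lowest CV library, and the log2 fold change was -0.24 ± 0.06 SE (edgeR, Benjamini-Hochberg adjusted p = 0.0077). Leaving out any single library kept Cox4i1 (edgeR, Benjamini-Hochberg adjusted p 0.00119 to 0.0413) and Ndufa4l2 (0.0043 to 0.0474) called, and without GF library 2 or 3 these 2 were the called members. Fitted with the ovary libraries, which share one estimate of the spread, 0 members were called in the testis, and 0.555% of all genes, with log2 fold changes of 0.12 for Cox4i1, 0.14 for Ndufb9, 0.11 for Ndufa9 and -0.25 for Ndufa4l2.

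Some marker lists of other cell types also differed in the same comparison. The summed CPM of 6 smooth muscle genes was 416 to 438 in GF and 464 to 478 in CV testes. That of 5 macrophage genes was 37.6 to 39.9 in GF and 45.4 to 46.4 in CV testes. That of 6 spermatid genes was narrowly below the CV range in GF testes (highest GF library 17510, lowest CV library 17571). The sum of 6 spermatocyte genes overlapped, with 5445 to 5489 in GF and 5371 to 5507 in CV testes. Of single markers, 2 of 6 smooth muscle, 2 of 6 spermatid and 1 of 5 macrophage genes were called lower. Called higher were 2 of 6 spermatocyte, 1 of 6 spermatogonium and 1 of 6 endothelial genes, while 0 of 6 Sertoli and 0 of 6 Leydig genes were called. Over all genes 4.41% were called lower and 3.67% higher. Several lists were mixed. Beside the called Egfl7 (0.43), endothelial Tek had 0.27, and Pecam1 (-0.32), Emcn (-0.39), Cdh5 (-0.08) and Kdr (-0.06) were below 0. Uncalled spermatocyte genes were Hormad1 (-0.06), Sycp1 (-0.03), Sycp3 and Ldhc (each -0.00), and spermatid Tnp1 had 0.04. The part of these cell types in the members' differences was not tested. Exons of the 4 called members overlap those of a neighbour: Emc8 with Cox4i1 (154 bases, log2 fold change -0.04), Shmt2 with Ndufa4l2 (32 bases, -0.14), 1700018A23Rik with Ndufa9 (67 bases) and Gm49356 with Ndufb9 (201 bases on the same strand).

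The next members by p-value were not called: Cox7a2 had 213, 234 and 228 CPM in GF testes against 215, 206, 215 and 213 CPM in CV testes (0.10 log2, edgeR, Benjamini-Hochberg adjusted p = 0.0545, or 0.0208 without GF library 1), and Ndufs3, a core subunit, had a log2 fold change of 0.08 (adjusted p = 0.269). Cox6a1 had 91.7, 94.3 and 93.1 CPM in GF testes, all below the 98.3, 101, 97.8 and 97.8 CPM of CV testes, and was not called (-0.07). Group ranges did not overlap for 5 members, beside 16.7% of all genes. The testis isoforms were not called, with log2 fold changes of 0.00 for Cox6b2, 0.00 for Cox7b2 and 0.03 for Cox8c. Of the other isoforms and partners, Cox7a1 had 0.19, Cox6b1 0.10, Cox7b 0.10, Ndufa4 0.05 and Cox8a -0.08, also uncalled. The 95% intervals of all 53 members reached from -0.39 to 0.76 (Cox7a1). Their median was 0.01 beside 0.00 for all genes, with 32 above and 21 below 0, and the median size of change was 0.04 for members beside 0.09 for all genes.

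**Figure D4:**
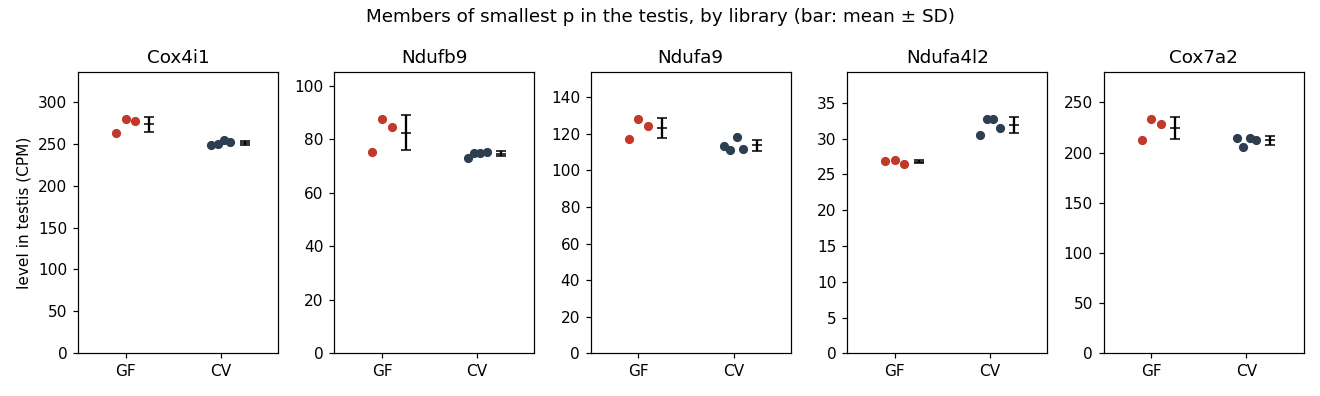
Level in CPM in GF (left) and CV (right) testes for the 4 called members and Cox7a2, 1 point per library, with mean ± SD and axes from 0. The GF points of Cox4i1 and Ndufb9 lie above and those of Ndufa4l2 below all CV points, and those of Ndufa9 and Cox7a2 overlap with CV.

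By role, the calls in the testis were 0 of 7 core subunits, 1 of 9 matrix-arm and 1 of 20 membrane-arm accessory subunits, 1 of 11 ubiquitous complex IV subunits, 0 of 4 tested isoforms and 1 of the 2 related genes, to be read against the 8.08% called over all genes. In the other parts of the pathway, 3 of 9 complex III subunits were higher in GF testes, where 3.67% of all genes were called higher and 4.41% lower. These were Uqcrc2 (0.20, 144 against 127 CPM, edgeR, Benjamini-Hochberg adjusted p = 0.000422), Uqcrc1 (0.09, adjusted p = 0.0432) and Uqcrq (0.11, adjusted p = 0.0467). The calls of Uqcrc1 and Uqcrq lay near the threshold, and the group ranges of Uqcrq overlapped. Of 4 complex II subunits 1 was lower, Sdhc (-0.21), and of 14 complex I assembly factors 1 was higher, Ecsit (0.31, 45.7 against 37.4 CPM, adjusted p = 0.000185). None of 15 complex IV assembly factors, 17 complex V subunits and 2 cytochrome c isoforms was called. Of 12 regulators of mitochondrial biogenesis, Tfam, which packages and transcribes mitochondrial DNA, was higher (0.12) and Tfb1m, a methyltransferase of the mitochondrial ribosomal RNA, was lower (-0.37, 59.2 against 77.1 CPM, adjusted p = 2.09e-07).

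In the ovary no member was called between GF and CV mice. Of 52 members tested, 0 passed edgeR's test, as with DESeq2 and limma-voom, beside 0.177% of all genes (32 genes). With a block for library number, which left out GF library 5, 91 genes were called, again with 0 members. Only 1 member had an unadjusted p under 0.05, beside 6.48% of all genes. That was Cox7c, a small complex IV subunit, with 57.6, 49.96, 50.8, 48.4 and 52.6 CPM in GF ovaries against 56.6, 58.7, 56.3 and 58.0 CPM in CV ovaries. One GF library lay within the CV range, and the log2 fold change was -0.15 ± 0.06 SE (edgeR, Benjamini-Hochberg adjusted p = 0.699). Ndufs7, which carries the last iron-sulfur cluster before ubiquinone, stood at 27.5, 27.1, 32.6, 27.5 and 29.1 CPM in GF ovaries against 26.0, 27.0, 24.96 and 26.2 CPM in CV ovaries, narrowly without overlap (0.14, edgeR, Benjamini-Hochberg adjusted p = 0.785). It was the 1 member whose group ranges did not overlap, beside 2.81% of all genes. Among the next were Ndufb3 (0.14), Ndufa11 (-0.21) and Cox7a2l (-0.09), with adjusted p of 0.795 to 0.810 by the same edgeR test and Benjamini-Hochberg adjustment. Among isoforms and partners the uncalled values ran from -0.47 for Cox7a1, -0.33 for Cox4i2 and -0.25 for Cox6b2 to 0.05 for Cox6a1. The 95% intervals of all 52 members reached from -1.20 (Cox7a1) to 0.48, and edgeR's estimate of the biological spread was 18.5% in the ovary against 4.17% in the testis. The median coefficient of variation between libraries over the members was 3.25% in GF testes, 3.59% in CV testes, 7.64% in GF ovaries and 8.15% in CV ovaries, beside 6.44%, 7.34%, 13.5% and 10.99% over all genes.

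**Figure D5:**
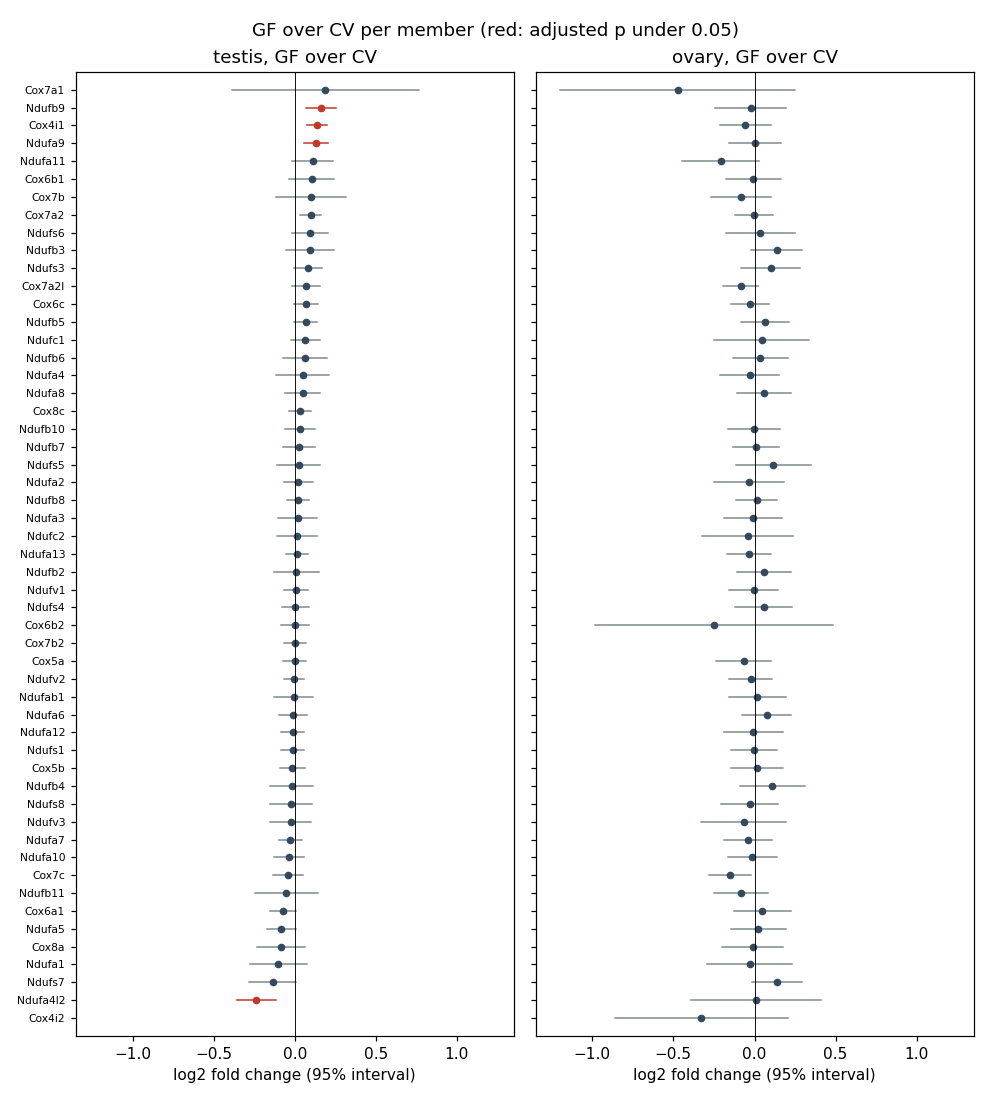
Log2 fold change of GF over CV with its 95% interval for members tested, testis on the left and ovary on the right, with called members in red. Red marks appear in the testis for Cox4i1, Ndufb9, Ndufa9 and Ndufa4l2, and the ovary intervals are wider.

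The difference between the organs in their response was tested directly over all 16 libraries. None of 55 members was called for the interaction (edgeR, with 0 also by DESeq2 and limma-voom), beside 0.132% of all genes, and 2 had an unadjusted p under 0.05, beside 6.93% of all genes. These were Ndufs7 (-0.29, testis response minus ovary response, edgeR, Benjamini-Hochberg adjusted p = 0.600) and Ndufa11, an accessory subunit of the membrane arm (0.30, adjusted p = 0.698). Cox4i1 had a value of 0.17 and Ndufa4l2 of -0.26 (edgeR, Benjamini-Hochberg adjusted p = 0.740 and 0.818), so the calls in the testis were not shown to differ from the ovary. The test could hardly decide this, because edgeR's estimate of the spread was 14.0% there, against 4.17% in the testis fit. A fit of all 16 libraries called 0 members even between GF and CV testes.

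The share of each isoform within its pair did not pass its test between GF and CV mice. In testes the 2-sided exact permutation p was 0.343 for Cox8c, 0.286 for Cox7b2 and 0.4 for Cox6b2, each with an adjusted p of 0.8 over 6 pairs. The smallest possible p of that design is 0.0571, so no pair could pass in testes. In ovaries Cox7a1 was 4.69% ± 1.85 of its pair in GF and 6.38% ± 1.65 in CV libraries, and Cox4i2 was 1.98% ± 0.443 in GF and 2.42% ± 0.424 in CV libraries (SD, n = 5 and 4, exact permutation test, adjusted p = 0.444 for both over 4 pairs). Cox6b2 and Cox6a2 had an adjusted p of 0.556 by the same exact test. In ovaries the smallest possible p of this test is 0.0159 before adjustment, so a single pair alone could not pass over 4 pairs.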

How the data were processed

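Total RNA of 7 testis and 9 ovary libraries was sequenced after ribosomal RNA depletion with a stranded kit, per the labels' protocols. The authors deposited raw read counts for 38087 genes in 16 columns, as whole numbers without normalisation, each matched to a sample by name. The submitters' processing notes name STAR 2.4.0i and mm10, while the program that counted reads and its strand setting are not given in the sources. Groups came from the labels.

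Counts were tested with edgeR 4.0.16 (R 4.3.3) by the robust quasi-likelihood F test with TMM scaling and edgeR's filter on low counts, on the groups compared, and over all 16 libraries for the interaction. Benjamini-Hochberg adjustment ran over all genes tested, with a threshold of 0.05. Standard errors come from the F statistic. The procedure was tested on simulated data with planted changes larger than those of the members called between GF and CV mice. The simulation therefore does not bear on differences of that size. CPM used TMM-normalised library sizes over all 16 libraries, and CPM per kb the exon length of GENCODE M21 (GRCm38), known for 36308 genes. Isoform shares were compared by 2-sided exact permutation tests. Intervals of count ratios are 95% and, like the floor of 3 counts, cover counting error only.

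The members and lists were chosen with earlier results of these data known. Named in the text are the restricted isoforms and partners, called members in each GF comparison, filled to 6 by smallest p, the 8 highest and 8 lowest tissue differences called in both comparisons, the 4 highest and 4 lowest levels per length, and up to 4 called genes of each other list. Values of 1 member are not reported here. Members named under a role or a scaling, and uncalled cell type markers named in the testis, were added after their values were seen.

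Replicate pairs differed beyond sampling noise (chi-square per degree of freedom 2.37 to 34.3 over genes with at least 20 counts), so each library counted once. Libraries of the same number in the labels deviated together in GF and CV ovaries (correlations 0.200 to 0.366). Number 3, however, correlated more with another number (0.225) than with its own (0.200). The main fits and the permutation tests used no pairing, and a block for library number was run only as an alternative. The block kept only library numbers present in every group compared. Left out by it were CV testis 4 in the testis and GF ovary 5 in the ovary. Between GF tissues GF ovaries 4 and 5 were left out, and for the interaction every library numbered 4 or 5. Alternatives were RLE and raw-total scaling, no filter, DESeq2 1.42.0, limma-voom (limma 3.58.1), all libraries in one fit, a replicate block, single libraries left out, and shares without length.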

Additional observations from a re-analysis of the deposited data

Results flagged for a closer look

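A single library stood apart from the others of its group in 13 of 166 sets of 4 or 5 values tested for a gap, where chance gives about 1 in 20. That rate does not apply to flagged sets with 1 read beside others at 0 (Cox7b2, Cox8c and Cox8b in CV testes), whose gap fills the whole range. The count of 13 is therefore not to be read as an excess. In GF ovaries, library 1 had 62.0 CPM of Cox7a2 (others 55.9 to 57.1) and 129 CPM of Cox7a2l (others 114 to 117), and library 3 had 41.6 CPM of Ndufa3 (others 34.5 to 36.3) and 42.8 CPM of Ndufb10 (others 36.5 to 38.1). In CV testes, library 1 was low for Cox5a (135 CPM, others 139.7 to 139.8) and Ndufb9 (73.1 CPM, others 74.9 to 75.1), library 2 was high for Cox6a1 (101 CPM, others 97.8 to 98.3), and library 3 was high for Ndufv3 (29.9 CPM, others 27.5 to 27.6) and for Cox8b (0.0505 CPM, others 0). In CV ovaries, library 4 was high for Cox4i2 (3.22 CPM, others 2.24 to 2.35) and library 2 for Cox8b (1.81 CPM, others 0.226 to 0.362). The values of 0.0532 CPM for Cox7b2 in CV ovary library 2 and 0.0521 CPM for Cox8c in CV ovary library 1 are single reads beside others at 0.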

How the results depend on the processing

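The count of members called in GF against CV testes was 4 under RLE scaling, no filter, DESeq2 and limma-voom, 5 with raw totals, 3 with the replicate block, 2 to 5 without single libraries and 0 with all 16 libraries in one fit; the cause was not tested. With raw totals the fifth was Cox7a2 (adjusted p = 0.0403 by edgeR with Benjamini-Hochberg adjustment), and the block lost Ndufa9 (0.11, adjusted p = 0.0893). No member was called in the ovary or for the interaction in any alternative. Over all genes, ovary calls were 32, against 95 with DESeq2, 93 in the fit of all libraries and 91 with the replicate block, and interaction calls were 29, against 127 with DESeq2 and 16 with the block. Testis libraries of the same number did not deviate together (correlations -0.042 to 0.015, and 0 of 3 was best with its own number), nor did those of different tissues (-0.037 to 0.025). The block changed no other member's call between GF and CV mice. With it 49 members in CV and 46 in GF mice were called between tissues. Except between CV tissues the block also left out libraries, so the effects of blocking and of fewer libraries cannot be told apart. Isoform shares kept their direction without length. Their tests could not pass in testes, where the smallest possible p of the exact permutation test was 0.0571. In ovaries it was 0.0159 before adjustment over 4 pairs, so a single pair alone could not pass there either. These tests say nothing of stability.

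Among the members followed by name in each comparison, log2 values that changed sign lay near 0 or are fitted on few reads. The exception was Cox4i1 between tissues with raw totals (-0.28 in GF and -0.47 in CV mice). Members not followed by name changed side there too. In CV mice, among others, Cox5b went from 0.64 to -0.16, Cox7c from 0.25 to -0.56 and Ndufb9 from 0.23 to -0.58. In the testis, Cox7b2 was -0.0016 with RLE and DESeq2, -0.0027 without a filter, -0.017 in the fit of all libraries and -0.016 with the block; Cox6b2 was -0.00057, -0.014 and -0.011 in the last 3 of these. In the ovary, Cox7a2 was 0.0037 with raw totals, and with the block Cox7a2 was 0.011, Cox8a 0.0096 and Cox6b1 0.0086. Cox8b was 0.71 for the interaction with limma-voom. Between tissues, Cox6a1 was 0.019 in GF mice with RLE and DESeq2, and in CV mice 0.12 with both, 0.020 without a filter, 0.0015 with limma-voom and 0.00043 with the block. Without single libraries, testis values spanned -0.036 to 0.041 for Cox6b2, -0.015 to 0.0064 for Cox7b2, -0.029 to 0.37 for Cox7a1 and -0.031 to 0.11 for Ndufa4. Ovary values spanned -0.020 to 0.10 for Cox6a1, -0.057 to 0.045 for Cox6b1, -0.43 to 0.025 for Cox6b2, -0.028 to 0.026 for Cox7a2, -0.049 to 0.082 for Cox8a, -0.10 to 0.059 for Ndufa4 and -0.077 to 0.089 for Ndufa4l2. Interaction values spanned -0.059 to 0.40 for Cox6b2, -0.017 to 1.92 for Cox7b2 and -0.030 to 0.13 for Ndufa4, and Cox6a1 between CV tissues spanned -0.073 to 0.045. Total counts were lower in ovary than in testis libraries; what size of difference they could show was not tested.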

Other observations

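Cox8b, an isoform of subunit VIII known from heart, skeletal muscle and brown fat, differed widely between ovary libraries. It stood at 0.0496, 0.472, 1.19, 0 and 0.511 CPM in GF ovaries 1 to 5 and at 0.313, 1.81, 0.362 and 0.226 CPM in CV ovaries 1 to 4. The summed CPM of 8 adipocyte markers in the same libraries was 43.3, 263, 1170, 29.0 and 810 in GF and 377, 1348, 521 and 103 in CV ovaries, so the library with the highest Cox8b in each group also had the highest sum. Ucp1, which defines brown fat cells, had at most 1 count in any ovary library. The part of fat tissue in the Cox8b values was not tested.

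Between organs the other lists of the respiratory chain held members on both sides under TMM scaling, where 45.7% of all genes were called higher and 43.4% lower in GF mice, and 47.4% higher and 43.8% lower in CV mice. Of 14 complex I assembly factors, 7 were called higher and 5 lower in GF testes than in GF ovaries, and 7 higher and 6 lower in CV mice. Of 15 complex IV assembly factors the counts were 5 and 8 in GF and 6 and 8 in CV mice, and of 17 complex V subunits 7 and 4 in GF and 8 and 5 in CV mice. Of 9 complex III subunits 5 were higher and 3 lower in GF mice, and 4 and 3 in CV mice, while complex II had 0 higher and 3 lower of 4 in GF and 0 and 2 in CV mice.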
